A study of Mus musculus with 10 samples.

Results

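Transcripts of 10 genes of the perineuronal net and its surroundings were followed on 10 Affymetrix arrays of mouse cortical cells sorted as astrocytes. The genes were the lecticans Ncan, Bcan, Vcan and Acan, the link protein gene Hapln1, the hyaluronan synthase gene Has2, the tenascins Tnc and Tnr, and the receptors Ptprz1 and Cd44. They were taken by name, 1 probe set each, and all 10 were among the 17712 genes tested. The arrays fall into a group labelled FMR1-KO, genotype FMR1_KO, and a group labelled Control, genotype wild-type, with 5 arrays in each. Both groups share the tissue, cortex, the age, 8 weeks, and a sort on an EGFP reporter carried by astrocytes. Strain, sex, the knockout allele, the promoter of the reporter and any pooling of animals are not stated in the labels. The replicates are called biological without saying whether each came from its own animal, so the spread behind each p-value may be partly technical.

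The perineuronal net is a dense extracellular matrix that wraps the cell body and proximal dendrites of certain neurons, among them fast-spiking inhibitory interneurons, and it limits synaptic plasticity in the adult cortex. Its backbone is hyaluronan, a sugar polymer spun out by membrane synthases. Lecticans bind hyaluronan through their N-terminal end, link proteins lock that bond, and tenascin-R ties the C-terminal ends of lecticans together. Astrocytes make several of these secreted parts, neurons make others, and oligodendrocyte precursors make some of both.

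The arrays read the labelled cell type and others. All 12 astrocyte markers were measured, with mean log2 levels from 7.61 for Gfap to 11.8 for Atp1b2. Microglia markers were read as well, and the mean of the 14 measured was 9.71 and 9.13 on FMR1-KO arrays 1 and 2 and 10.3 to 10.6 on FMR1-KO arrays 3 to 5, against 9.86 on Control array 1 and 10.7 to 10.9 on Control arrays 2 to 5. None of the 14 was near the bottom of the scale, since the dimmest, Aif1, averaged 7.91. Xist was high, at 10.60 and 10.98, on Control arrays 2 and 3 alone, with 4.98 to 5.23 elsewhere, while Y-linked Uty read 4.82 and 4.77 there and 7.64 to 8.30 elsewhere, so these 2 arrays read as female and the other 8 as male. Fmr1 averaged 8.22 ± 0.15 on the FMR1-KO arrays and 8.04 ± 0.26 on the Control arrays (SD, n = 5 each), and its probe set does not show a loss of transcript. Which part of the gene that probe set reads is not given in the sources used here, so the groups are named by their labels.

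No gene of the net passed the test between the groups after adjustment over all genes. On the FMR1-KO arrays the mean was higher for 8 of the 10 and lower for 2, and the median log2 difference was 0.21, while over all genes 46.8% had a higher mean and the median was -0.01. At an adjusted p under 0.05 (limma, Benjamini-Hochberg) 0 of the 10 passed, against a background of 0% of all genes tested. At an unadjusted p under 0.05 there were 2 of 10, Ncan and Bcan, both higher, where the background was 7.53% of all genes in either direction. The groups did not separate for any of the 10, and 0.429% of all genes separated upward and 0.536% downward. Leaving out single arrays moved both the count of net genes at the unadjusted threshold and the share of all genes. The count was 0 without FMR1-KO array 1 or 2, where 4.54% and 4.48% of all genes passed, and 0 without Control array 2 or 3, where 5.62% and 5.08% passed. It was 5 without FMR1-KO array 3, beside 9.61% of all genes, and 4 without Control array 1, beside 13.7%. It was 1 without FMR1-KO array 4 or Control array 5, beside 8.89% and 5.47%. In these bulk samples, fewer cells of a type and less RNA per cell cannot be told apart.

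**Figure D1:**
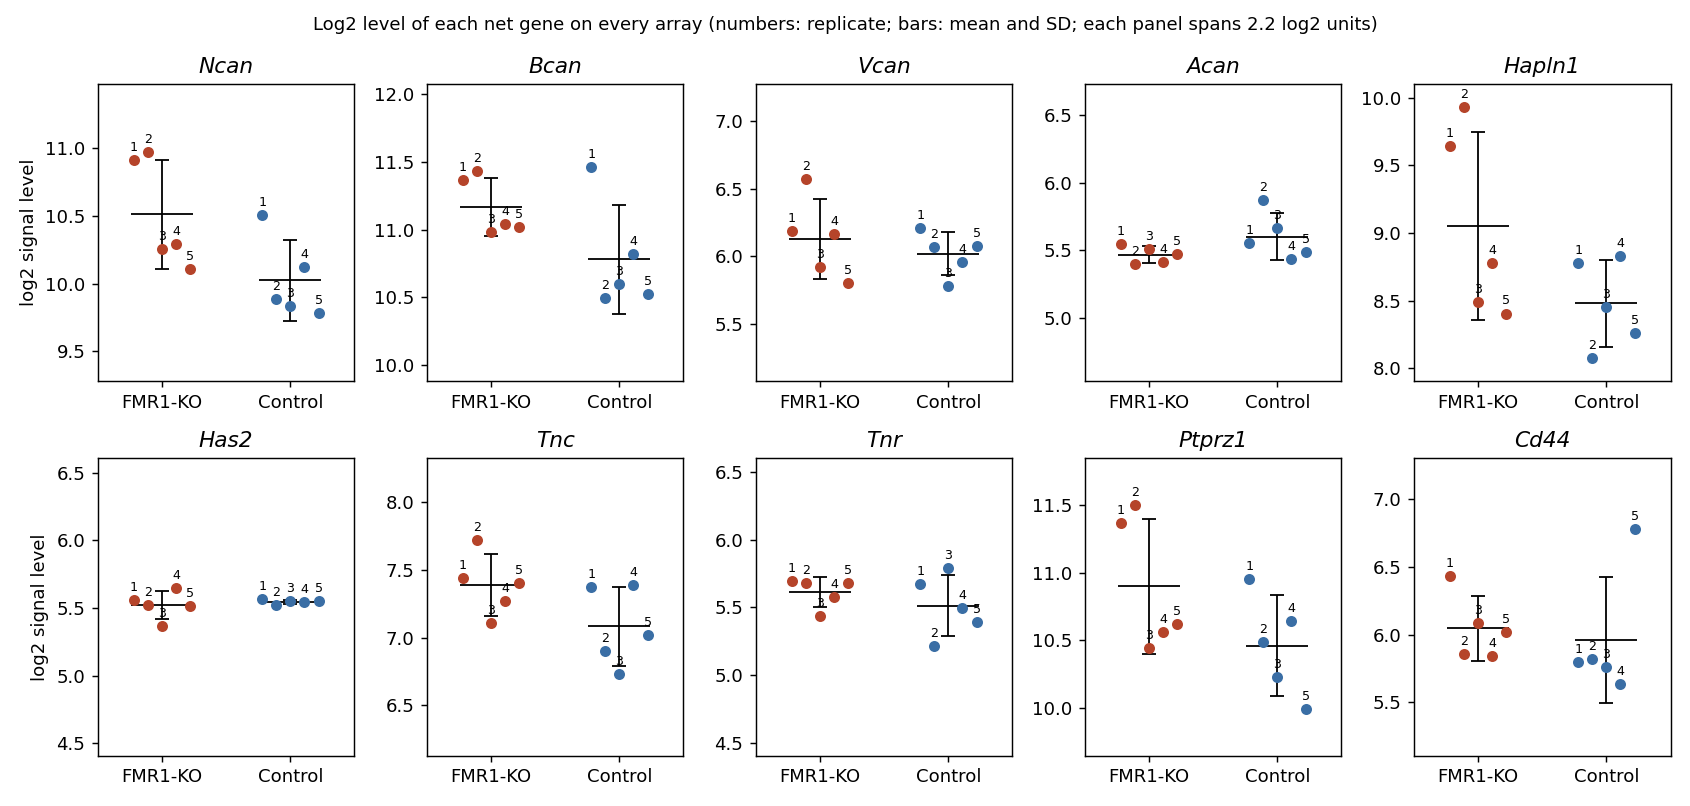
Log2 signal level (vertical axis) of the 10 genes on every array, FMR1-KO in red and Control in blue, with the replicate number above each point and the mean and SD as black bars (n = 5 each). Every panel overlaps between groups, and FMR1-KO arrays 1 and 2 carry the highest FMR1-KO readings of Ncan, Bcan, Hapln1 and Ptprz1.

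Among the lecticans, Ncan encodes neurocan, a brain proteoglycan made by astrocytes and neurons. Its log2 level was 10.92, 10.98, 10.26, 10.29 and 10.11 on FMR1-KO arrays 1 to 5, against 10.51, 9.89, 9.83, 10.12 and 9.78 on Control arrays 1 to 5. FMR1-KO arrays 1 and 2 lay above every Control array, and Control array 1 lay above the remaining FMR1-KO arrays. It averaged 10.51 ± 0.40 on the FMR1-KO arrays and 10.02 ± 0.30 on the Control arrays (SD, n = 5 each), a log2 difference of 0.49 ± 0.19 (SE), or 1.40-fold with a 95% interval of 1.04 to 1.88. All 5 FMR1-KO arrays exceeded the Control mean, and the adjusted p in limma was 0.654.

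A second, dimmer probe set carries Ncan as its only symbol. It read 9.43, 9.68, 8.45, 8.74 and 9.10 on FMR1-KO arrays 1 to 5, against 8.57, 9.16, 8.41, 8.02 and 8.09 on Control arrays 1 to 5. The order of the arrays differed from that of the brighter probe set: Control array 2 was the highest Control array here and the third of 5 there. The log2 difference was 0.63 ± 0.26 (SE; limma adjusted p = 0.634 among 18765 probe sets), so both probe sets had a higher FMR1-KO mean and neither passed the threshold.

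Bcan encodes brevican, the smallest lectican, which is found in nets and around synapses. It read 11.37, 11.44, 10.98, 11.04 and 11.02 on FMR1-KO arrays 1 to 5, against 11.46, 10.50, 10.60, 10.82 and 10.53 on Control arrays 1 to 5. The highest of all 10 readings was Control array 1, and the other Control arrays lay below every FMR1-KO array. It averaged 11.17 ± 0.22 on the FMR1-KO arrays and 10.78 ± 0.40 on the Control arrays (SD, n = 5 each), with a log2 difference of 0.39 ± 0.18 (SE; limma adjusted p = 0.654). Without Control array 1 it was 0.56.

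Vcan encodes versican, a large lectican also made by oligodendrocyte precursors and vascular cells. It read 6.19, 6.57, 5.92, 6.16 and 5.80 on FMR1-KO arrays 1 to 5, against 6.21, 6.07, 5.78, 5.96 and 6.08 on Control arrays 1 to 5. FMR1-KO array 2 stood above the rest, which overlapped. The log2 difference was 0.11 ± 0.14 (SE; limma adjusted p = 0.858), and it was -0.0029 without FMR1-KO array 2. The Vcan signal was dim, with a mean of 6.07 over all arrays, below every array median.

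Acan encodes aggrecan, the lectican most closely tied to the mature net and made largely by neurons. Its level lay between 5.40 and 5.55 on the FMR1-KO arrays and between 5.44 and 5.87 on the Control arrays, close to the cutoff of 5.32 below which probe sets were left out as dim. The 2 highest readings, 5.87 and 5.66, were Control arrays 2 and 3, the arrays with Xist signal. The log2 difference was -0.13 ± 0.09 (SE; limma adjusted p = 0.707), and it was -0.02 without those 2 arrays. All 5 FMR1-KO arrays lay below the Control mean. Levels this near the cutoff do not show that aggrecan mRNA was unchanged.

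Hapln1 encodes the link protein that locks lecticans onto hyaluronan. It read 9.65, 9.93, 8.49, 8.78 and 8.41 on FMR1-KO arrays 1 to 5, against 8.78, 8.08, 8.45, 8.83 and 8.26 on Control arrays 1 to 5. FMR1-KO arrays 1 and 2 stood above all others, and FMR1-KO arrays 3 to 5 lay within the range of the Control arrays. It averaged 9.05 ± 0.70 on the FMR1-KO arrays and 8.48 ± 0.32 on the Control arrays (SD, n = 5 each), with a log2 difference of 0.57 ± 0.29 (SE), or 1.48-fold with a 95% interval of 0.962 to 2.29 (limma adjusted p = 0.659). Without FMR1-KO array 2 the log2 difference was 0.35. Hapln1 had the widest spread of the 10 genes, at an SD of 0.59 over all arrays, and 98.4% of genes tested had a smaller one.

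Has2 encodes a membrane synthase that extrudes hyaluronan. It read 5.37 to 5.65, with a median of 5.52, on the FMR1-KO arrays and 5.52 to 5.57, with a median of 5.55, on the Control arrays. The log2 difference was -0.02 ± 0.07 (SE; limma adjusted p = 0.950), with a 95% interval of -0.18 to 0.14 on the log2 scale. Both groups lay just above the dim cutoff, and such readings do not show that Has2 mRNA was unchanged. Another probe set, shared in the annotation by Has2 and its antisense RNA Has2os, was left out.

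Of the tenascins, Tnc encodes tenascin-C, a large glycoprotein of immature and injured tissue that astrocytes can make. It read 7.44, 7.72, 7.11, 7.27 and 7.40 on FMR1-KO arrays 1 to 5, against 7.37, 6.90, 6.73, 7.39 and 7.02 on Control arrays 1 to 5. Control arrays 1 and 4 reached into the FMR1-KO range, and the other Control arrays lay below it. It averaged 7.39 ± 0.23 on the FMR1-KO arrays and 7.08 ± 0.29 on the Control arrays (SD, n = 5 each), with a log2 difference of 0.31 ± 0.15 (SE; limma adjusted p = 0.656). Leaving out Control arrays 2 and 3 gave 0.13.

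Tnr encodes tenascin-R, which crosslinks lecticans and in the adult brain is made mainly by cells of the oligodendrocyte lineage and by some neurons. It read 5.69, 5.68, 5.44, 5.58 and 5.68 on FMR1-KO arrays 1 to 5, against 5.67, 5.21, 5.79, 5.50 and 5.39 on Control arrays 1 to 5. The Control arrays held both the highest and the lowest reading. The log2 difference was 0.10 ± 0.11 (SE; limma adjusted p = 0.825), while leaving out Control array 2 gave 0.03 and leaving out Control array 3 gave 0.17. The Tnr signal, too, lay near the dim cutoff.

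Of the receptors, Ptprz1 encodes a transmembrane tyrosine phosphatase whose extracellular part carries chondroitin sulfate, binds tenascins and pleiotrophin and is also made as the secreted form phosphacan. It read 11.37, 11.50, 10.44, 10.56 and 10.62 on FMR1-KO arrays 1 to 5, against 10.96, 10.49, 10.23, 10.65 and 9.99 on Control arrays 1 to 5. FMR1-KO arrays 1 and 2 were the highest 2 of the 10, Control array 1 the next, and Control array 5 the lowest. It averaged 10.90 ± 0.50 on the FMR1-KO arrays and 10.46 ± 0.37 on the Control arrays (SD, n = 5 each), with a log2 difference of 0.44 ± 0.24 (SE; limma adjusted p = 0.670). Without FMR1-KO array 2 it was 0.29.

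Cd44 encodes a hyaluronan receptor of leukocytes and of some astrocytes. It read 6.43, 5.86, 6.09, 5.84 and 6.02 on FMR1-KO arrays 1 to 5, against 5.79, 5.82, 5.76, 5.63 and 6.78 on Control arrays 1 to 5. Control array 5 held the highest reading of all, and the other 4 Control arrays lay below every FMR1-KO array. The log2 difference was 0.09 ± 0.20 (SE; limma adjusted p = 0.927), and without Control array 5 it was 0.29. The mean of the 8 measured macrophage and leukocyte markers was 5.88 to 6.44 on the FMR1-KO arrays and 6.24 to 6.79 on the Control arrays, with 6.79 on Control array 5, and its part in the Cd44 reading was not tested.

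The genes of the net varied together across arrays in part. FMR1-KO array 2 held the highest reading of 5 of the 10 genes, Ncan, Vcan, Tnc, Hapln1 and Ptprz1. FMR1-KO array 1 lay above the 10-array median for 10 of 10 genes, FMR1-KO array 2 for 8 and Control array 1 for 9, while Control array 2 did so for 1. The share of all genes behind such counts was not computed. These 3 arrays also led the main axis of variation over all 17712 genes, the first principal component, with 48.5% of the variance. They lay at 31.0, 45.2 and 16.3 on it, and every other array was negative. The pattern is therefore not particular to the net genes. The mean of the 12 astrocyte markers was likewise highest on these 3 arrays, at 10.90 and 10.95 on FMR1-KO arrays 1 and 2 and 10.5 on Control array 1, against 10.0 to 10.2 on the other FMR1-KO arrays and 9.80 to 10.2 on the other Control arrays. The microglia marker mean was lowest on the same 3 arrays, as given above, and the part of these marker levels in the net readings was not tested beyond the fits that follow. Acan, Has2 and Cd44 peaked on other arrays, Control array 2, FMR1-KO array 4 and Control array 5.

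**Figure D2:**
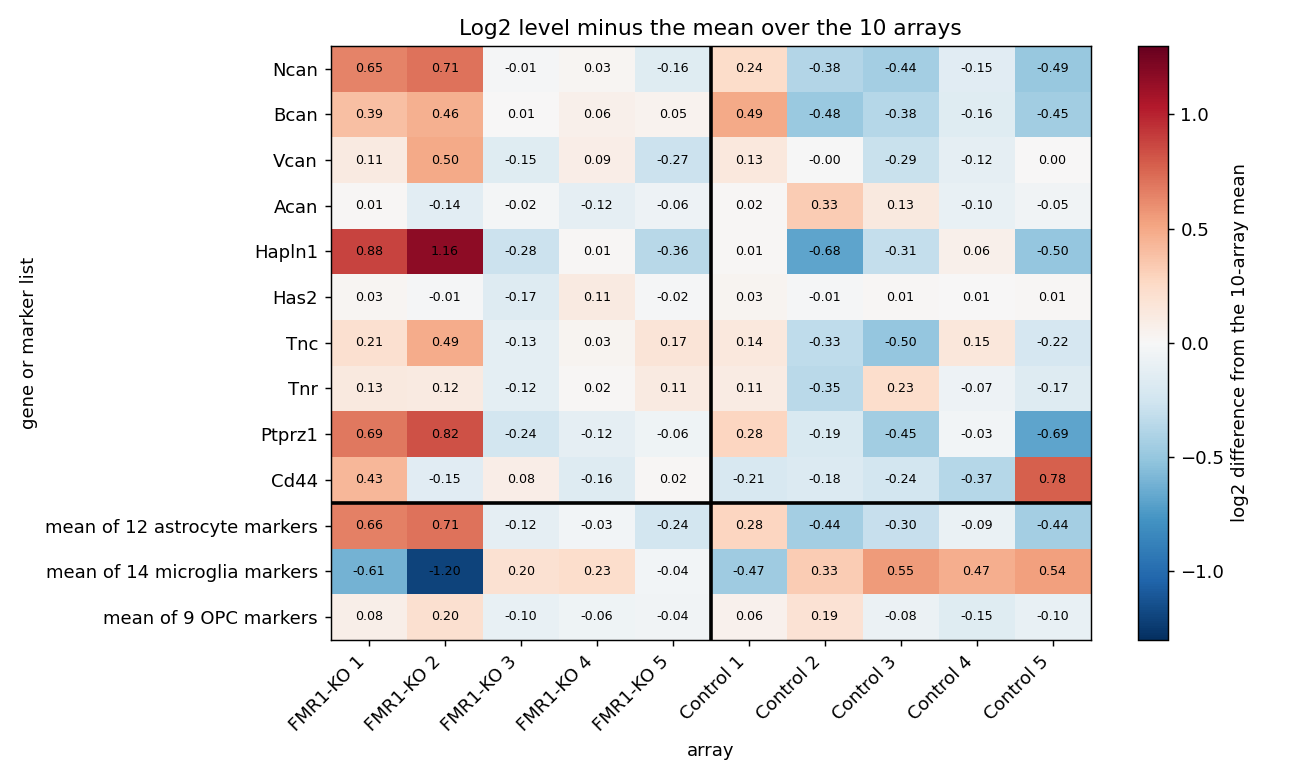
Log2 level of each gene (rows) on each array (columns) minus the gene's mean over the 10 arrays, with the centred means of 12 astrocyte, 14 microglia and 9 oligodendrocyte precursor (OPC) markers below the line. Ncan, Bcan, Hapln1 and Ptprz1 are above their means on FMR1-KO arrays 1 and 2 and Control array 1, where the microglia row is negative.

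Likeness of profiles was measured as the mean absolute difference between the centred log2 levels of 2 genes over the 10 arrays, where 0 is the same profile. Ncan lay 0.12 from both Bcan and Ptprz1, 0.19 from Tnc, 0.21 from Hapln1, 0.22 from Vcan and 0.27 to 0.39 from the other 4 net genes. The median distance of Ncan to all other genes considered was 0.35. Its own mean absolute deviation, which is its distance to a flat profile, was 0.32. A distance near that value can thus reflect a gene that varies little. Bcan was nearer to Tnc, at 0.17, than to Ptprz1, at 0.21, or Hapln1, at 0.30. Over those 15891 genes outside the net, the nearest to Ncan were Acsl6 at 0.039, Xylt1 at 0.043 and Cpe at 0.054. The nearest to Bcan were Itsn1 and Msi2, both at 0.058, and Itga7 at 0.066. Those nearest to Ptprz1 were Luzp2 at 0.048, Scg3 at 0.065 and AW047730 at 0.066. Hapln1 was nearest to Dkk3 at 0.082, the water channel gene Aqp4 at 0.093 and Fam171b at 0.097. For Tnc the nearest were Trim37 and Polr2k, both at 0.087, and Fah at 0.089. These distances describe the same 10 arrays, which share differences in marker levels, and carry no test.

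Results for the net genes that rest on the arrays standing apart were computed without them. Leaving out FMR1-KO arrays 1 and 2 and Control array 1, the 3 lowest in microglia markers, left 3 FMR1-KO and 4 Control arrays. The log2 difference was then 0.40 ± 0.11 (SE) for Bcan and 0.32 ± 0.11 for Ncan. Their unadjusted p in limma was 0.0029 and 0.0163, where 8.90% of all genes had one under 0.05. For Bcan, this fit drops Control array 1, the highest of all its readings. In that fit Hapln1 differed by 0.15 ± 0.17 and Ptprz1 by 0.20 ± 0.15, and 0 of the 10 genes passed after adjustment. Without Control arrays 2 and 3, so that only arrays reading as male were compared, the differences were 0.37 ± 0.24 for Ncan, 0.23 ± 0.21 for Bcan, 0.43 ± 0.36 for Hapln1 and 0.37 ± 0.30 for Ptprz1, and 0 of the 10 passed at an unadjusted p under 0.05, beside 4.05% of all genes. In a fit that held the mean of the microglia markers as a covariate, Ncan differed by 0.14 ± 0.12, Bcan by 0.10 ± 0.13, Hapln1 by 0.11 ± 0.20 and Ptprz1 by 0.0095 ± 0.13, and 0 passed at an unadjusted p under 0.05, beside 4.52% of all genes. All 14 measured microglia markers had a lower mean on the FMR1-KO arrays, with a median log2 difference of -0.58, and all 12 astrocyte markers a higher one, with a median of 0.41. The oligodendrocyte precursor markers had 4 higher and 5 lower means of 9 measured, and the 9 neuron markers 2 higher and 7 lower. Means were lower for all 8 macrophage and leukocyte markers and all 5 choroid plexus markers, for 6 of 10 vascular markers and for 3 of 6 oligodendrocyte markers. Some of these markers were dim. Neuron markers averaged 5.64 to 6.40, and the dimmest macrophage and precursor markers 5.51 and 5.47, beside the dim cutoff of 5.32. The direction of such dim markers says little about cell content.

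**Figure D3:**
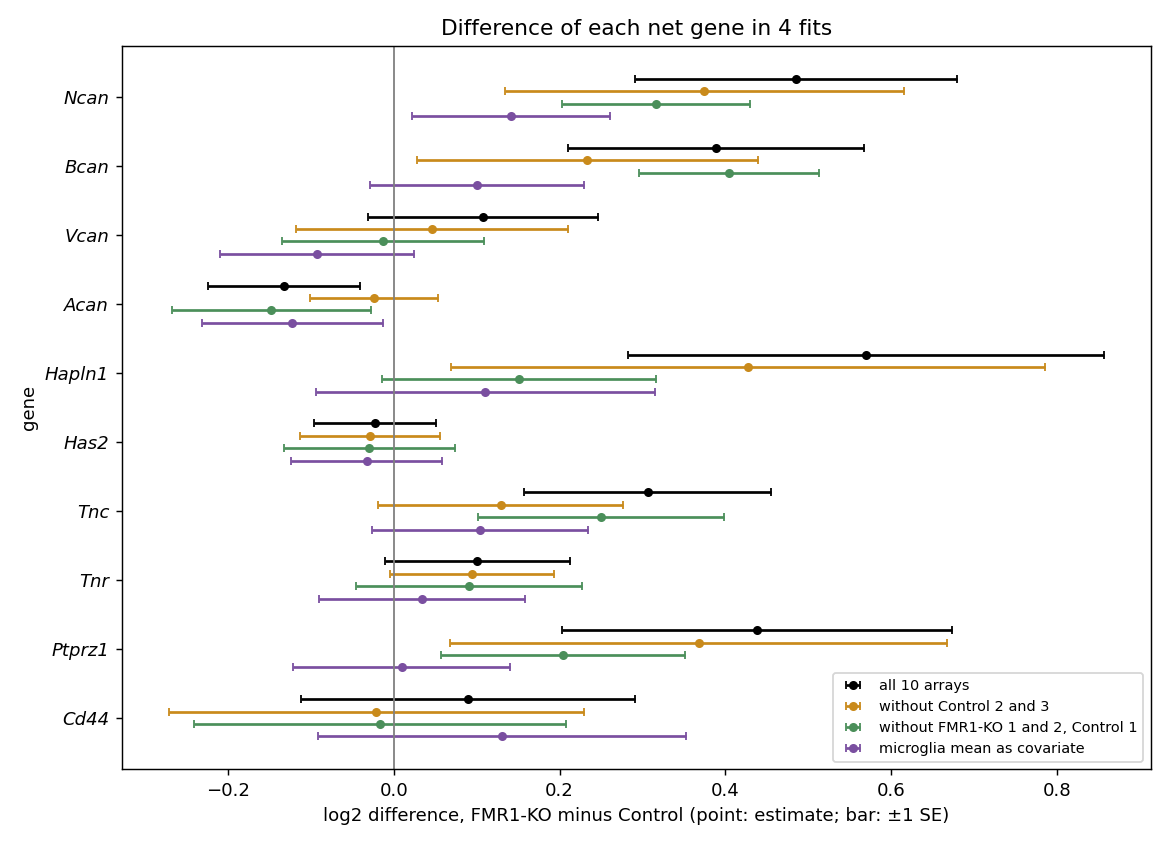
Log2 difference, FMR1-KO minus Control (horizontal axis), of each gene in 4 fits, with the estimate as a point and 1 SE as the bar. Bcan is 0.39 with all arrays and 0.40 without FMR1-KO arrays 1 and 2 and Control array 1. It is 0.23 without Control arrays 2 and 3 and 0.10 with the microglia covariate. Hapln1 is 0.57 with all arrays and 0.15, 0.43 and 0.11 in the other fits, in the same order.

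The promoters of Ncan, Bcan, Ptprz1 and Hapln1 are shown because these genes had the largest group differences in the net and lay high on the same arrays. RefSeq promoters on GRCm38.p6, each 300 bases, laid from 250 before to 50 after 1 annotated transcript start, were matched for 9 of the 10 genes. That start need not be the outermost one of the gene: it lay inside the annotated gene by 19 bases for Ncan, 107 for Hapln1, 187 for Ptprz1 and 1819 for Bcan, whose window falls wholly within the gene. Each is printed on the gene's strand, 5′ to 3′. The Ncan window is chr8:70120795-70121094 (minus strand), that of Bcan chr3:88000307-88000606 (minus strand), that of Ptprz1 chr6:22875252-22875551 (plus strand) and that of Hapln1 chr13:89540386-89540685 (plus strand). Capitals mark matches, on either strand, to any of 5 short motifs: TATAA (TATA box), GGGCGG (GC box), TTGGCA (NFI site), ACAATG (core of SOX sites) and TGANTCA (AP-1 site).
Ncan: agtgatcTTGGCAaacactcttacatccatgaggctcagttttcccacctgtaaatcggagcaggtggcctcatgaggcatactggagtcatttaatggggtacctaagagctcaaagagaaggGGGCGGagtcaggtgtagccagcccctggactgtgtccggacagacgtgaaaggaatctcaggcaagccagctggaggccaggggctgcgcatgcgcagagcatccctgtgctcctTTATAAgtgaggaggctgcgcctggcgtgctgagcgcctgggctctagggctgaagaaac
Bcan: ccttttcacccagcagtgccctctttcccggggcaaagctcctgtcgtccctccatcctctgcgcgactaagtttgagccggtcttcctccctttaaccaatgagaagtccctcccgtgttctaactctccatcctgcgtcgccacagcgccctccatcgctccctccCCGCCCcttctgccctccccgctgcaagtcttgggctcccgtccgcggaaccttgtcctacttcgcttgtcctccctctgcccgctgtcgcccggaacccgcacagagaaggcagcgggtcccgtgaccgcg
Ptprz1: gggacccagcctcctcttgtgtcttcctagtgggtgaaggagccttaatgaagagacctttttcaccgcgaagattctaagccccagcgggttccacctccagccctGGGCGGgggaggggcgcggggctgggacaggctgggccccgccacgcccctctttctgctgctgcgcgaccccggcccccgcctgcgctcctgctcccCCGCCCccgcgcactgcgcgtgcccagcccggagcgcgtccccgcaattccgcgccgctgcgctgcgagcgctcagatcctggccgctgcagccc
Hapln1: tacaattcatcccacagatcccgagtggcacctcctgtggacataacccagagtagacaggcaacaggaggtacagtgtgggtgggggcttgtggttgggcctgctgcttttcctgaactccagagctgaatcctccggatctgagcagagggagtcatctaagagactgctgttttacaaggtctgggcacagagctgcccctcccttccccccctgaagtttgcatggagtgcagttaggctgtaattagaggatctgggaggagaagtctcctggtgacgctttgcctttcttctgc
The 4 windows differed in base composition. Hapln1 held 3 CpG dinucleotides and Ncan 9, while Bcan held 24 and Ptprz1 29, where the median over 32851 promoters was 7. GC boxes were found in Ncan (1), Bcan (1) and Ptprz1 (2), and 35.7% of all promoters held one. Ncan also held TATAA matches, which overlap each other on opposite strands as TTATAA, and 1 TTGGCA, found in 24.9% and 14.1% of promoters. None of the 5 motifs was in the Hapln1 window, and ACAATG (12.6% of promoters) and TGANTCA (7.81%) were in none of the 4. A match describes letters in this window and says nothing of binding.

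Other genes of net assembly were read from lists chosen with earlier results of these data known. Among 14 secreted partners and other matrix proteoglycans, the mean was higher for 8 and lower for 6, and the median log2 difference was 0.02. Cspg5, which encodes neuroglycan C, averaged 10.98 ± 0.29 on the FMR1-KO arrays and 10.52 ± 0.39 on the Control arrays (SD, n = 5 each), a log2 difference of 0.45 ± 0.19 (SE). Hapln2, the link protein gene of nodes of Ranvier, differed by 0.26 ± 0.09, and Crtac1 by -0.18 ± 0.09. Both were far dimmer than Cspg5. Hapln2 had means of 6.23 on the FMR1-KO arrays and 5.97 on the Control arrays. Crtac1 lay near the dim cutoff, with means of 5.46 and 5.65 in the same order. In this and the following lists 0 genes passed after adjustment over all genes in limma, and the adjusted p was 0.654 or higher for each. With the microglia covariate, Cspg5 differed by 0.14 ± 0.13 (SE), Hapln2 by 0.23 ± 0.10 and Crtac1 by -0.12 ± 0.10.

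Lecticans carry chondroitin sulfate chains, which a set of Golgi enzymes builds and sulfates. Of 20 measured enzymes, the mean was higher for 7 and lower for 13, and the median log2 difference was -0.10. At an unadjusted p under 0.05 in limma there were 2 higher and 1 lower, beside the background of 7.53% in either direction. Xylt1, which adds the first sugar to the core protein, averaged 9.17 ± 0.37 on the FMR1-KO arrays and 8.64 ± 0.30 on the Control arrays (SD, n = 5 each), a log2 difference of 0.53 ± 0.19 (SE). Csgalnact1, which begins the chondroitin repeat, differed by 0.55 ± 0.22, and the sulfotransferase gene Chst7 by -0.39 ± 0.16. The median was -0.03 without Control arrays 2 and 3. In the fit with the microglia covariate, Xylt1 differed by 0.19 ± 0.10 (SE), Csgalnact1 by 0.16 ± 0.14 and Chst7 by -0.17 ± 0.14.

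For hyaluronan, 5 of 10 other genes were higher in mean and 5 lower, and the median log2 difference was -0.02. The synthase gene Has1 differed by -0.17 ± 0.08 (SE), the receptor genes Lyve1 by -0.17 ± 0.09 and Layn by -0.30 ± 0.16. Has1 lay near the dim cutoff, with means of 5.39 on the FMR1-KO arrays and 5.56 on the Control arrays. None of the 10 had an unadjusted p under 0.05. Has1 differed by -0.19 ± 0.10 (SE), Lyve1 by -0.21 ± 0.10 and Layn by -0.04 ± 0.12 with the microglia covariate.

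Among 19 receptors of net components and ligands of Ptprz1, 12 were higher in mean and 7 lower, and the median log2 difference was 0.06. The adhesion molecule Ncam1, which binds neurocan, averaged 11.64 ± 0.38 on the FMR1-KO arrays and 11.06 ± 0.15 on the Control arrays (SD, n = 5 each), and its groups did not overlap, as was so for 0.429% of all genes in this direction. Nfasc, which encodes neurofascin, differed by 0.32 ± 0.11 (SE) and Nrcam, another adhesion molecule, by 0.54 ± 0.23. The list held 5 higher genes and 1 lower at an unadjusted p under 0.05 in limma, beside the background of 7.53%. Under the microglia covariate, Ncam1 differed by 0.30 ± 0.11 (SE), Nfasc by 0.27 ± 0.13 and Nrcam by 0.12 ± 0.12.

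Of 16 proteases and inhibitors, 7 were higher in mean and 9 lower, and the median log2 difference was -0.03. At an unadjusted p under 0.05 in limma there were 2 higher and 2 lower, beside the background of 7.53% in either direction. The groups did not overlap for 1 of the 16, as was so for 0.429% of all genes upward and 0.536% downward. The membrane-bound protease gene Mmp14 differed by 0.43 ± 0.15 (SE), the inhibitor gene Timp3 by 0.57 ± 0.22 and the gelatinase gene Mmp2 by -0.58 ± 0.21. Of the proteases that cut lecticans, Adamts4 differed by -0.00057 ± 0.11 (SE) and Adamts5 lay below the dim cutoff. Adamts4 was dim too, with a mean of 5.78 in both groups, below every array median, which does not show that its mRNA was unchanged. These 2 genes were chosen after their values were seen. The median of the list was 0.10 without Control arrays 2 and 3. Mmp14 differed by 0.20 ± 0.12 (SE), Timp3 by 0.18 ± 0.13 and Mmp2 by -0.21 ± 0.12 with the microglia covariate.

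**Figure D4:**
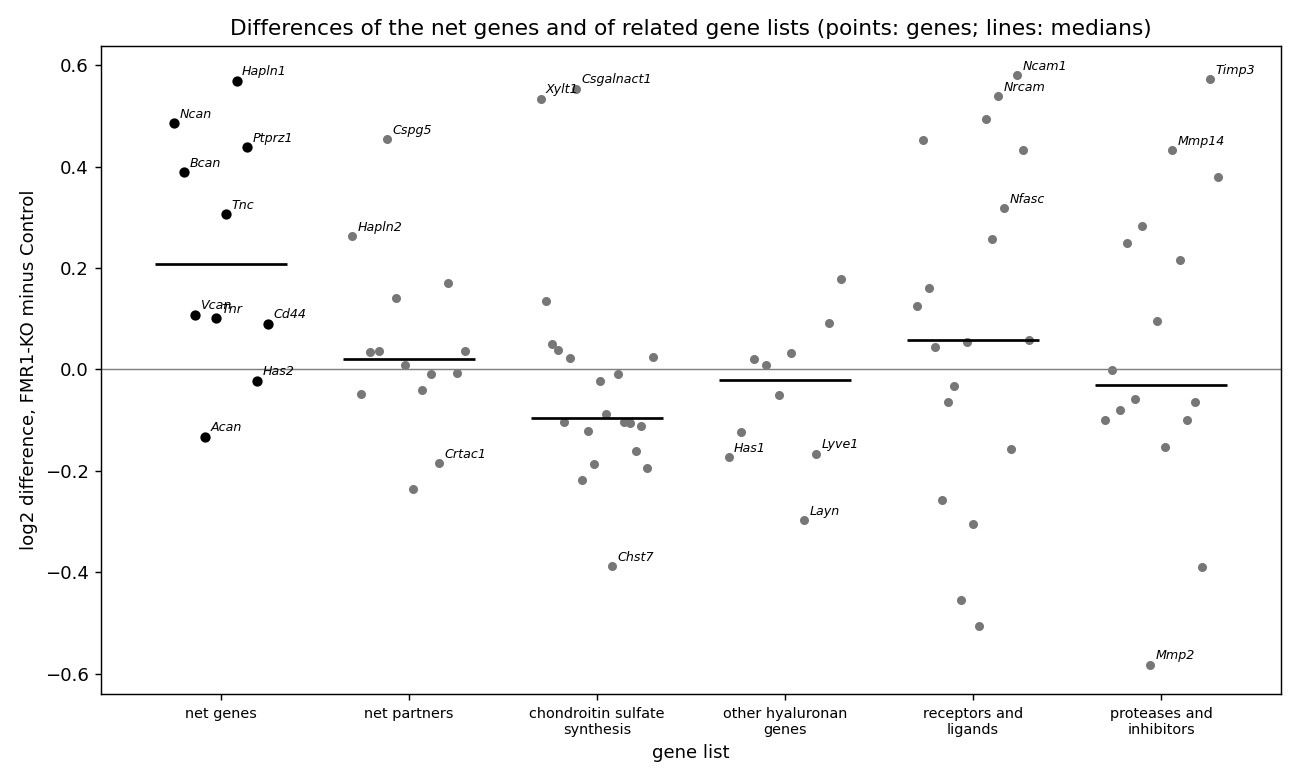
Log2 difference, FMR1-KO minus Control (vertical axis), of the 10 net genes and of the measured genes in 5 related lists (horizontal axis), with genes as points and list medians as lines. The net genes have a median of 0.21, and the 5 lists have medians between -0.10 and 0.06, all with genes on both sides of 0. The 12 astrocyte markers, not drawn here, have a median of 0.41. With the microglia covariate, also not drawn, the median of the net genes is 0.067.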

How the data were processed

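RNA of cortical cells sorted as astrocytes was amplified with an Affymetrix whole-transcript kit, labelled with biotin and hybridised to 10 arrays, per the labels' protocols. The authors compared control with FMR1 KO in GeneSpring 13.1.1, per the series' design text. How background was corrected and signals were normalized and summarised is not given in the sources used here. Values deposited by the authors are log2 signal per probe set, a scale read from the values themselves (4.31 to 13.9, medians per array 6.11 to 6.24). The number of arrays limits the precision.

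Of 33793 probe sets, 23521 carry 1 gene symbol in the platform annotation, 1814 several and 8458 none listed. The brightest probe set per gene was kept. A filter removed genes whose mean level fell under 5.32, the 25th percentile over probe sets, leaving 17712 genes. The groups were compared with limma 3.58.1 (lmFit, eBayes; R 4.3.3). Its two-sided p-values were adjusted by the Benjamini-Hochberg method over these genes and read at 0.05. Levels of different probe sets are not compared with each other. The fit was tested on simulated data with known changes. Of 50 genes changed at each size, 27 were recovered at 1.5-fold, 40 at 2-fold, 49 at 3-fold and 50 at 4-fold. Of 17512 unchanged genes, 8 were called. The noise was drawn separately for each gene, unlike the real arrays, where genes vary together. Recovery in the real data is therefore not known, and differences under 1.5-fold were not simulated.

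The genes, lists and alternatives were chosen with earlier results of these data known. Named are all 10 net genes, Fmr1, the sex markers Xist and Uty, the 3 genes per related list with the smallest unadjusted p, and the 3 genes with the nearest profile to each net gene, leaving out predicted genes. Alternatives were other normalizations, filters, probe set rules and variance models, array weights, a block for the replicate number, leaving out each array, leaving out arrays that stand apart, and a microglia covariate.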

Additional observations from a re-analysis of the deposited data

Results flagged for a closer look

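The Cd44 reading of 6.78 on Control array 5 stood apart from the other Control arrays. The next highest of them read 5.82, and the gap between these values was 0.834 of the whole range of the group, above Dixon's critical value for 5 samples. The levels of the 10 genes in both groups gave 20 such sets of 5 arrays, and chance marks about 1 in 20. Control array 5 was not the highest Control array for any other net gene.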

How the results depend on the processing

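The count of genes past the adjusted threshold was 0 with all arrays and 0 to 1 when each array was left out in turn, the 1 being Cnbd2 without Control array 5. It was 1, Tlcd1, without the 3 arrays lowest in microglia markers, and the cause was not tested. Of the 10 net genes, 0 passed under any of the 21 alternatives. Their median log2 difference, 0.21, was 0.18 to 0.29 when each array was left out, 0.11 without the Control arrays with Xist signal, 0.12 without the 3 arrays lowest in microglia markers and 0.067 with the microglia covariate. It was 0.44 with a filter at the median of all probe sets, which by its construction kept 5 of the 10 genes. The replicate block, which the labels' shared numbers allow, kept 0 genes past the adjusted threshold and the median of 0.21, with 5 net genes at an unadjusted p under 0.05 instead of 2, while the share of all genes was 11.7% instead of 7.53%. Correlations of same-numbered arrays' deviations were -0.015 to 0.53, so the numbers are not shown to pair the arrays. Of 205 differences of single net genes under the alternatives, 8 changed sign. Cd44, 0.09 with all arrays, was -0.0041 with array weights, -0.021 without the Control arrays with Xist signal, -0.016 without the 3 arrays lowest in microglia markers and -0.0071 to 0.29 when each array was left out, lowest without FMR1-KO array 1. Vcan was -0.013 without those 3 arrays, -0.092 with the microglia covariate and -0.0029 to 0.19 when each array was left out, lowest without FMR1-KO array 2. Has2, -0.02 with all arrays, was -0.054 to 0.016 when each was left out, highest without FMR1-KO array 3. The named genes of the 5 related lists changed sign in 0 of 312 differences. They were picked for the smallest unadjusted p in these data, which favours a stable sign, so this count is no support for them. It is not comparable with that of the net genes, which were taken whatever their values. A kept sign is also not a kept size, as the fit with the microglia covariate showed for these genes. Of 105 list medians, 8 moved by more than the spread between arrays. Signal near the dim cutoff limits what Acan, Has2 and Tnr can show.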

Other observations

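The dim and scattered net genes had near profiles of their own. By the mean absolute difference of centred log2 levels over the 10 arrays, Vcan was nearest to Ccdc146 at 0.057, S100pbp at 0.069 and Hydin at 0.072, and Tnr to Mir28a at 0.044, Pnn at 0.064 and Snhg18 at 0.065. Acan was nearest to Nos3 at 0.036, Mettl27 at 0.038 and Unc45b at 0.039, beside a mean absolute deviation of Acan itself of 0.098. Has2 was nearest to Ccdc40 at 0.031, Snord52 at 0.032 and Klhl1 at 0.033, beside its own deviation of 0.042. Cd44 was nearest to the interferon-induced gene Oasl2 at 0.12, Rasgrp2 at 0.14 and Xdh at 0.14.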
